A study of Mus musculus with 6 samples.

Results

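The 84 genes described here reached their highest level in control replicate 2, the library of embryonic mouse lens richest in crystallin mRNA, among 6 RNA-Seq libraries of control and Gata3 CKO lenses. They were chosen by their own counts from the 13024 genes of the table. Each count was divided by the total of its library and scaled to a total of 1000000 (CPM), and a gene was kept where control replicate 2 held at least 5 CPM and at least 1.7 times the highest of the other 5 pools. Genes whose names start with Cry were left out, and 10 crystallins that met both limits (Cryba2, Cryba4, Crybb1, Crybb3, Crygb, Crygc, Crygd, Cryge, Crygf and Crygn) were set aside in this way. The height of control replicate 2 is therefore a property of the choice and not a result, and the question asked was which of the 84 genes also separated the genotypes once that pool was put aside.

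Lenses were taken at E14.5 from embryos of mixed C57BL/6 and FVB strain, and 10 lenses from 5 embryos formed each of the 3 pools per genotype. The CKO embryos carried 2 floxed Gata3 alleles and Pax6-Cre, a transgene in which an ocular enhancer and the P0 promoter of Pax6 drive Cre in the ectoderm that gives rise to lens and cornea. The labels call the CKO pools Gata3 -/- and the control pools wild type, while the study gives the control as Gata3 f/wt in one place and as Gata3 f/f in another, in each case without Cre. Cre was carried by the CKO embryos alone, so an effect of Cre and one of Gata3 loss cannot be told apart. Library totals lay between 15157230 and 18811104 counts.

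The lens holds a single epithelial layer over a mass of fibre cells, which leave the cell cycle, elongate, fill with crystallins and later lose their nuclei and other organelles. Fibre cells carry a cytoskeleton of beaded filaments built on filensin and phakinin, water channels and gap junctions in their membranes, and transcription factors such as Maf, Prox1 and Hsf4 that act on crystallin genes. Gata3 is a zinc finger factor that binds the word GATA and is expressed in differentiating lens fibres.

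Promoters of 60 of the 84 genes, with 74 start sites, were found in RefSeq (GRCm38.p6). The windows ran from 250 bases before to 50 bases after each start, and 3 motifs were searched on both strands. GATA words (AGATAA or AGATAG, and TGATAA or TGATAG) were present in 28.4% of the windows of these genes and in 18% of 12842 windows of all tested genes. The Maf motif TGCTGA was present in 32.4% and 15.4%, and the heat shock element GAANNTTC in 10.8% and 5.58%. In the 38 windows of the genes whose genotypes did not overlap without control replicate 2, the shares were 21.1%, 18.4% and 7.89%. Overlapping windows of the same gene, such as those of Snx22, were each counted. A run of letters such as TGCTGATAA holds both of the first motifs, and a match is a string of letters and not a shown binding site. The 250 bases before the start are printed for Bfsp1, which separated the genotypes, for Capn3, with the most of these motifs of the 3 shown, and for Mip, which had the highest level and did not separate them. Capitals mark the GATA words and the Maf motifs on either strand. None of the 3 stretches overlaps an annotated exon.
Bfsp1, chr2:143863174-143863423, reverse strand: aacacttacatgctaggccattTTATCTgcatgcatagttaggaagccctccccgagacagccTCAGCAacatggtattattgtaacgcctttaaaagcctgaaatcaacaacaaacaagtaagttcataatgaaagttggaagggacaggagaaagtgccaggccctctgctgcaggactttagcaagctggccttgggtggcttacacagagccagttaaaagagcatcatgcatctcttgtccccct
Capn3 (a start inside the gene), chr2:120476659-120476908, forward strand: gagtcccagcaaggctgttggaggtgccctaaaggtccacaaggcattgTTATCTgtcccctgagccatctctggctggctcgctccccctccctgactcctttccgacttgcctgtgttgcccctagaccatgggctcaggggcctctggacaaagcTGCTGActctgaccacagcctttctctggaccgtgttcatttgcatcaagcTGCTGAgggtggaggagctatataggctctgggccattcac
Mip, chr10:128225560-128225809, forward strand: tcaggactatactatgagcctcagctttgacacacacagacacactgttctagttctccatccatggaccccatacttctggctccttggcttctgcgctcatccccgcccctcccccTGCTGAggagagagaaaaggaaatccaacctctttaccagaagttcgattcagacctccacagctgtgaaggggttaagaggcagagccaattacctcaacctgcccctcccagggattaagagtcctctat

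The whole-gene count of the targeted gene was higher in the libraries labelled CKO. Gata3 stood at 12.8, 23.6 and 9.0 CPM in control, in the order of replicates 1 to 3, and at 60.0, 56.6 and 48.9 CPM in the libraries labelled CKO, and without control replicate 2 its log2 fold change was 2.32 (adjusted p = 0.0493, edgeR's quasi-likelihood test). Cre removes exon 4 only, and a single count for the whole gene cannot tell exon 4 from the rest, so these counts do not check the deletion. The study examined exon 4 separately, by its reads and by qPCR, and neither was analysed here. Every direction below compares libraries labelled CKO with libraries labelled control.

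Control replicate 2 stood apart from the other 5 libraries. The 16 crystallin genes took 16.5% of its counts, while the other control pools gave 9.31% (replicate 1) and 6.63% (replicate 3). The 3 CKO pools gave 7.27%, 5.96% and 5.47%. The 84 genes followed nearly the same order of pools, with control replicate 3 and CKO replicate 1 exchanged. They held 15880, 29340 and 12209 CPM in all in control replicates 1, 2 and 3 and 12115, 10439 and 8988 CPM in the CKO replicates. In pools of whole lenses, a different number of cells of a type and a different amount of RNA per cell cannot be told apart. The share of the library taken by crystallins moved with the levels of these genes, and its part in them was not tested.

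The label of a fibre-rich pool was checked on marker lists. Of 17 tested genes of lens fibre structure, 13 were highest in control replicate 2, 6 of them members (Bfsp1, Lim2, Mip, Gja3, Lenep and Lctl), and the list summed to 14409, 23953 and 11228 CPM in control replicates 1, 2 and 3 and to 15025, 12243 and 11206 CPM in CKO. The genes were not all of fibre cells, however, and the lens epithelium list was also highest in control replicate 2. Of its 16 tested genes, 9 were highest and 1 was lowest in that pool, and 3 were members, chosen for their height there. The epithelium list summed to 4213, 6141 and 3345 CPM in control replicates 1, 2 and 3 and to 4114, 4507 and 3694 CPM in CKO. Of the sum in control replicate 2, the members Col4a1 and Col4a2 gave 2008 and 1334 CPM. The height of this list there was thus partly set by the choice, and the fibre sum likewise includes its 6 members. Foxe3, a forkhead factor of the lens epithelium, Col4a1 and Col4a2, the type IV collagens of the lens capsule, and all 4 tested blood genes were members too. On a wider list of 14 tested erythroid genes, however, Alas2 was the single member, 8 genes were highest and 2 lowest in control replicate 2, and the sums were 850, 984 and 852 CPM in control and 844, 774 and 806 CPM in CKO. The 18 retinal markers were all lowest in control replicate 2, with a sum of 1857 CPM there and between 3612 and 5327 CPM in the other pools, and none was a member. Among 16 proliferation genes, 14 were lowest in that pool, where they summed to 3828 CPM against 5202 to 6011 CPM elsewhere. The mesenchyme list varied in another way, with 2397, 596 and 331 CPM in the control replicates and 371, 4411 and 654 CPM in the CKO replicates. No gene of the retina, proliferation, mesenchyme, pigment cell, vessel, macrophage, surface ectoderm, muscle, liver or hypoxia lists was a member, and the part of other tissue in the members' levels was not tested. The genes are therefore called the genes peaking in control replicate 2.

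**Figure D1:**
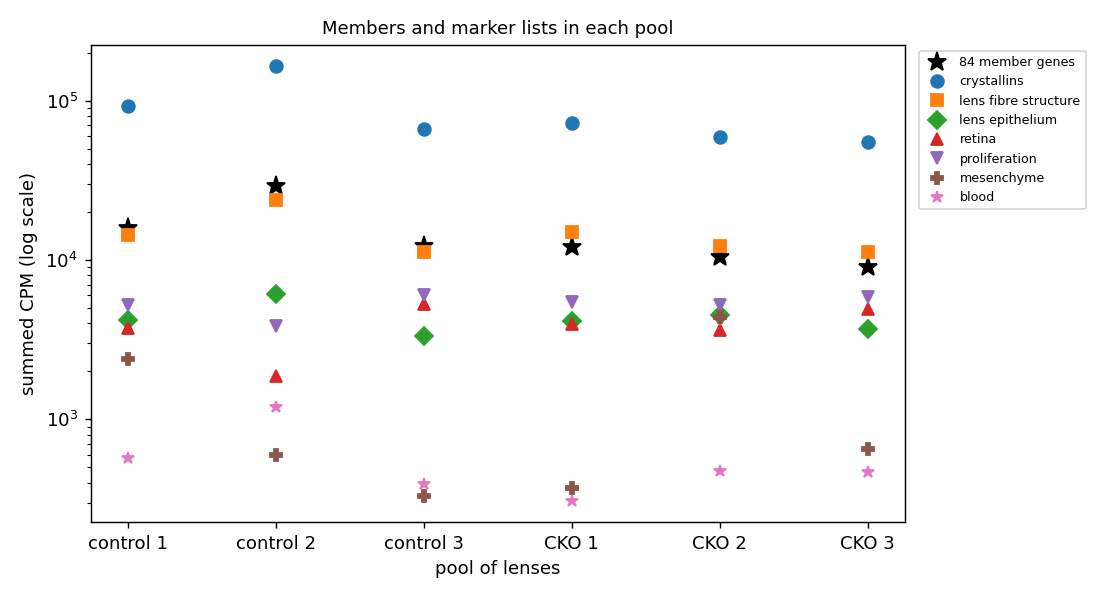
Summed CPM (vertical axis, log scale) of the 84 genes and of 7 marker lists in each pool (horizontal axis), 1 symbol per list and pool. The 84 genes and the crystallin, lens fibre, lens epithelium and blood lists were highest in control replicate 2, where the retina and proliferation lists were lowest. The blood sum consists of 4 members, so its peak was set by the choice. The lens fibre and lens epithelium sums include 6 and 3 members, so their peaks were partly set by it.

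In control replicate 2 the 84 genes ranged from 5.14 to 7013 CPM, with a median of 53.9 CPM. The ratio of that pool to the highest of the other pools ran from 1.703 to 2.92, with a median of 1.90, and the highest ratio belonged to Tmprss11e, a membrane-bound serine protease. Just inside the limit of 1.7 lay Sqrdl (1.703), Maf (1.71) and Slc46a3 (1.72), and just outside it lay Sox2ot (1.699), Caprin2 (1.692) and Cyyr1 (1.690). The same rule, applied to each other pool in turn, took 0 genes in control replicate 1, 4 in control replicate 3, and 8, 98 and 1 in CKO replicates 1, 2 and 3. Of the 84 genes, 81 encode proteins and 3 are noncoding (Gm20757, Gm14005 and Gm11961), and they lay on 19 chromosomes. Their exons had a median total length of 3430.5 bases, against 4552.5 bases for all tested genes.

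The order of the remaining pools was shared by many of the genes. The median gene stood at 51.5% of its level in control replicate 2 in control replicate 1, at 40.8% in control replicate 3, and at 37.8%, 33.9% and 30.3% in CKO replicates 1, 2 and 3. Control replicate 1 was the highest of the 5 other pools for 66 of the 84 genes, against 11.7% of all tested genes, and it exceeded control replicate 3 for 75 genes, against 41.7% of all tested genes. Among the CKO pools, replicate 1 exceeded replicate 2 and replicate 2 exceeded replicate 3 for 51 of the genes and for 12.6% of all tested genes, an order that is also that of their crystallin share. CKO replicate 3 was the lowest of the 5 pools for 52 genes, against 11.8%.

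**Figure D2:**
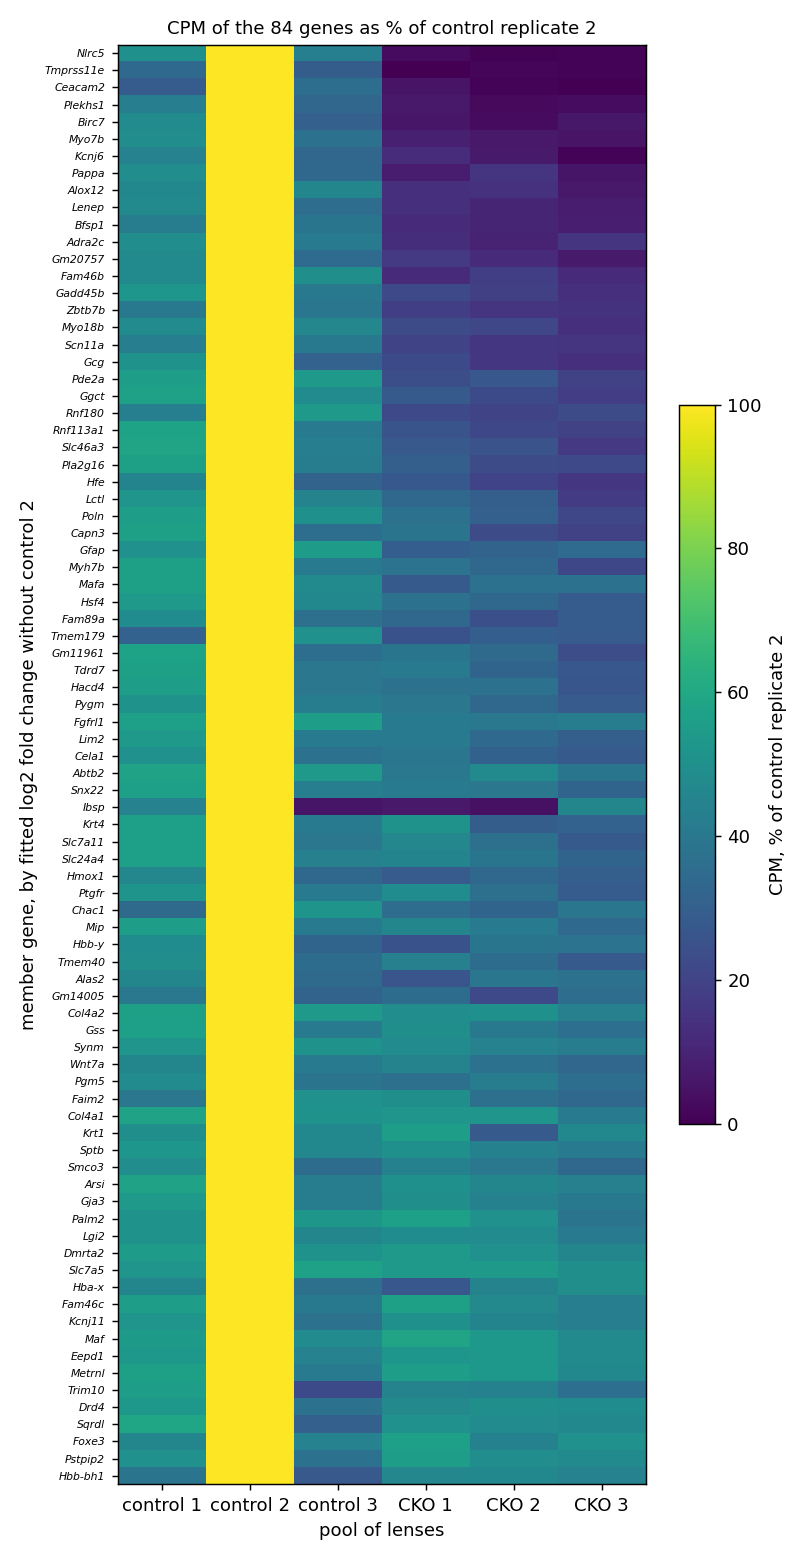
CPM of each of the 84 genes (rows) in the 6 pools (columns), as a percentage of the gene's CPM in control replicate 2, which is 100 by construction. Rows are ordered by the fitted log2 fold change without control replicate 2, and the CKO pools are darkest in the top rows, from Nlrc5 to Lenep and Bfsp1.

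The genotypes were compared without control replicate 2, that is 2 control pools against 3 CKO pools, with edgeR's quasi-likelihood test over 12891 genes. All 84 genes passed the filter of at least 10 counts in at least 2 of the 5 libraries. The rule had used these 5 pools only through the highest of them, which set an upper limit to their levels. This limit held for the CKO pools too, and against the other control pools alone the rule took 140 genes. Genes with a CKO pool above the limit were left out. The counts of lower and higher members, here and below, were thus partly set by the choice. At an adjusted p under 0.05, 5 of the 84 genes were lower in CKO: Tmprss11e, Myo7b, Bfsp1, Nlrc5 and Zbtb7b. The test called 5 genes lower in the whole table, or 0.0388% of those tested, and these were the same 5. Tmprss11e, Nlrc5, Plekhs1, Ceacam2 and Kcnj6 reached 10 counts in fewer than 2 CKO libraries, so these 5 members passed the filter through the control pools where they were high. Their place in the test, and the calls of Tmprss11e and Nlrc5, lean on the difference tested. Of the other 79 genes, 3 were called lower. None of the 84 was called higher by edgeR, none was higher at an unadjusted p under 0.05, and none was higher in DESeq2. The 3 genes called higher, 0.0233% of those tested, were Gata3, Megf10 and Itga6, which are not members. At an unadjusted p under 0.05, 37 of the 84 genes were lower, against 2.51% of all tested genes.

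Both control pools lay above all 3 CKO pools for 40 of the 84 genes, against 9.58% of all tested genes (35 of the 79), and below them for 1 gene, Hbb-bh1, against 12.3%. The groups overlapped for the other 43. Log2 fold changes were negative for 74 genes and positive for 10, with a median of −0.44, while the median over all tested genes was 0.00189. Without the 5 genes that passed the filter through the control pools, 69 of 79 were negative, with a median of −0.41. Without control replicate 1, 61 of 82 fitted genes were negative and the median was −0.20. With the crystallin total as library size, 47 of the 84 were negative and 37 positive. The range was wide, from −5.03 to 0.44: 25 genes lay below −1, 13 between −1 and −0.5, and 36 between −0.5 and 0. A two-sided exact permutation test on ranks, of 2 against 3 pools, cannot give a p below 0.2, so no single gene can pass it.

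Bfsp1 encodes filensin, a subunit of the beaded filament (chr2:143826528-143863173, reverse strand). It stood at 714, 1690 and 658 CPM in control replicates 1, 2 and 3 and at 203, 174 and 144 CPM in CKO. All CKO values lay below the control values, and the log2 fold change without control replicate 2 was −2.00 ± 0.16 (SE; adjusted p = 0.0493, edgeR's quasi-likelihood test). Myo7b, an unconventional myosin (chr18:31959234-32036961, reverse strand), stood at 27.2, 55.3 and 20.8 CPM in control and at 4.82, 3.83 and 2.90 CPM in CKO. The groups were again apart, with a log2 fold change of −2.67 ± 0.25. Nlrc5, a regulator of MHC class I genes (chr8:94434356-94527272, forward strand), stood at 12.5, 24.9 and 10.7 CPM in control and at 0.726, 0.159 and 0.219 CPM in CKO. These CKO values rest on 11, 3 and 4 counts, and the log2 fold change was −5.03 ± 0.50.

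Tmprss11e (chr5:86705186-86745815, reverse strand) was similarly near the floor in CKO. Its levels were 7.33, 21.4 and 6.34 CPM in control and 0.0660, 0.319 and 0.219 CPM in CKO, the latter from 1, 6 and 4 counts, with a log2 fold change of −5.01 ± 0.44. Zbtb7b, a zinc finger transcription factor best known from T cells (chr3:89377644-89394776, reverse strand), stood at 37.5, 92.3 and 36.1 CPM in control and at 17.3, 14.1 and 13.6 CPM in CKO. The log2 fold change of Zbtb7b was −1.31 ± 0.14, and both groups were tight beside the distance between them. The adjusted p from edgeR was 0.0493 for each of the 5 genes, close to the threshold. Without CKO replicate 2 or CKO replicate 3 none of them was called, and without CKO replicate 1 Bfsp1 and Nlrc5 were. Without control replicate 1 or control replicate 3, Bfsp1, Myo7b, Nlrc5 and Zbtb7b were not called, and Tmprss11e no longer passed the count filter and was not tested. Over the 5 fits with 1 library left out, the log2 fold change stayed between −2.15 and −1.87 for Bfsp1, between −2.88 and −2.43 for Myo7b, between −5.93 and −4.67 for Nlrc5 and between −1.45 and −1.24 for Zbtb7b. For Tmprss11e it lay between −5.48 and −4.67 in the 3 fits without a CKO pool. With all 6 pools in the edgeR fit, no gene of the table was called, while 462 had an unadjusted p under 0.05.

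**Figure D3:**
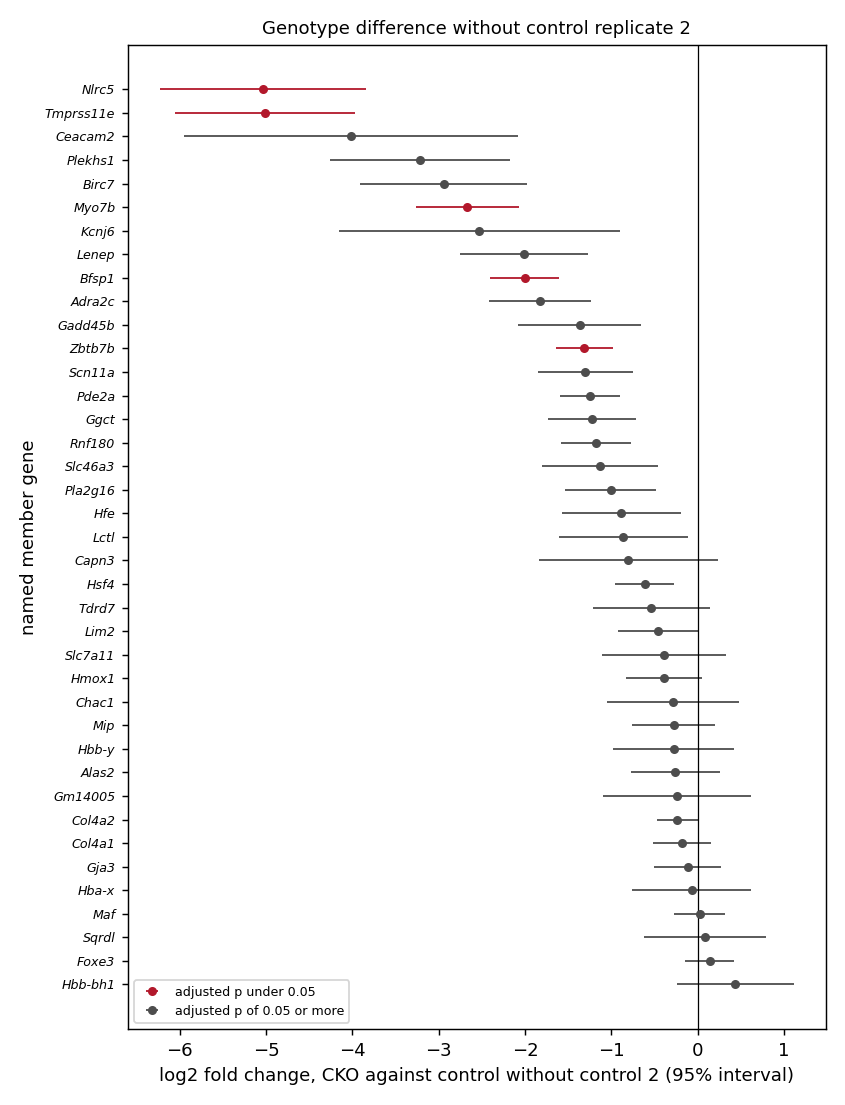
Log2 fold change of CKO against control without control replicate 2 (horizontal axis) for the 39 named genes, with the 95% interval of the edgeR fit; red marks an adjusted p under 0.05. The values run from −5.03 for Nlrc5 to 0.44 for Hbb-bh1.

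Further genes had separate groups but no adjusted p under 0.05. Plekhs1, which encodes a pleckstrin homology protein, stood at 5.50, 12.9 and 4.27 CPM in control and at 0.858, 0.319 and 0.437 CPM in CKO (log2 fold change −3.22). Birc7, an inhibitor of apoptosis, stood at 6.64, 13.8 and 4.21 CPM and at 0.858, 0.425 and 0.875 CPM (log2 fold change −2.94). Pde2a, a phosphodiesterase of cyclic nucleotides, stood at 56.4, 100.6 and 53.9 CPM and at 24.0, 27.2 and 19.6 CPM (log2 fold change −1.25). In these 3 genes no CKO pool came near the lower control pool. The adjusted p from edgeR was 0.0881 for Plekhs1 and Birc7 and 0.0669 for Pde2a. Adra2c, an adrenergic receptor, had a log2 fold change of −1.83 and Rnf180, a ubiquitin ligase, one of −1.18, and the adjusted p from edgeR was 0.0881 and 0.0942. Ceacam2, a cell adhesion molecule, held 28 and 38 counts in control replicates 1 and 3 and 5, 1 and 0 counts in CKO (log2 fold change −4.02). The channel genes Kcnj6 and Scn11a had log2 fold changes of −2.53 and −1.30, and the iron regulator Hfe one of −0.88. In each of these genes both control pools lay above all CKO pools.

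The 6 genes of fibre structure did not move alike. Lenep, a small protein of the lens, had 101, 214 and 76.8 CPM in control and 28.7, 22.5 and 16.0 CPM in CKO. The groups of Lenep did not overlap, with a log2 fold change of −2.01 ± 0.29 (SE), but the adjusted p from edgeR was 0.174. Lctl, of the klotho family, was also apart, with 8.41, 16.1 and 7.21 CPM in control and 5.41, 4.89 and 2.79 CPM in CKO (log2 fold change −0.86).

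The membrane proteins of the fibre cell showed smaller differences. Mip, the water channel aquaporin 0, stood at 3895, 7013 and 2859 CPM in control and at 3223, 2851 and 2410 CPM in CKO, with a log2 fold change of −0.28 and a 95% interval from −0.76 to 0.20. Gja3, the gap junction protein connexin 46, stood at 410, 763 and 320 CPM and at 381, 335 and 309 CPM, with a log2 fold change of −0.12 and an interval from −0.50 to 0.27. Control replicate 3 lay within the range of the CKO pools for both genes. Lim2, an intrinsic membrane protein of fibres, stood at 756, 1401 and 583 CPM and at 576, 478 and 426 CPM, and its log2 fold change of −0.46 had an interval from −0.92 to −0.000415. The Lim2 groups were barely apart on CPM and overlapped after TMM scaling. Of the 17 tested genes on the list, 1 was called lower (Bfsp1) and none higher, 4 had both controls above and 1 had both below all CKO pools.

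Organelle clearance was represented by 2 members of the 26 tested genes on its list, and none of the 26 was called. Pla2g16, a phospholipase that acts on organelle membranes in the lens, stood at 180, 317 and 135 CPM in control and at 95.4, 73.8 and 69.7 CPM in CKO (log2 fold change −1.01). Its groups were apart. Capn3, a calcium-dependent protease with a lens-specific form, stood at 3306, 5832 and 2103 CPM and at 2239, 1366 and 1121 CPM. Control replicate 3 lay below CKO replicate 1 for Capn3, and the log2 fold change of −0.80 had an interval from −1.84 to 0.24.

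Of 23 tested transcription and RNA factors of the lens, 4 were members. Hsf4, a heat shock factor of fibre cells, stood at 61.1, 113 and 52.5 CPM in control and at 42.6, 37.8 and 32.9 CPM in CKO, and its groups were apart (log2 fold change −0.61). Tdrd7, a component of RNA granules, stood at 671, 1180 and 468 CPM and at 493, 381 and 322 CPM (log2 fold change −0.54), with control replicate 3 below CKO replicate 1. Maf, a leucine zipper factor that binds crystallin promoters, stood at 411, 757 and 366 CPM and at 442, 402 and 358 CPM. The groups of Maf overlapped fully, and its log2 fold change of 0.02 had a 95% interval from −0.27 to 0.31. Foxe3 stood at 76.2, 166 and 73.6 CPM and at 94.1, 73.1 and 84.5 CPM, a log2 fold change of 0.14 with an interval from −0.14 to 0.43. On this list Gata3 was called higher and none was called lower.

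The paired collagen genes Col4a1 and Col4a2 lie head to head on chromosome 8 and share 22 bases. Col4a1 stood at 1160, 2008 and 1021 CPM in control and at 1044, 1046 and 829 CPM in CKO, and its groups overlapped (log2 fold change −0.19). Col4a2 had a log2 fold change of −0.23, with both controls above all CKO pools and a 95% interval from −0.47 to 0.000708. With the overlap option of the counting not given in the sources used here, fragments in the shared bases cannot be assigned to either.

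Values were also set against the crystallins of the same pool, since their share differed so much between pools. Per 1000 crystallin counts, Mip held 41.8, 42.6 and 43.1 counts in control replicates 1, 2 and 3 and 44.4, 47.8 and 44.0 counts in CKO. Control replicate 2 lay between the other control pools on this scale. Bfsp1 held 7.67, 10.3 and 9.93 counts per 1000 crystallin counts in control and 2.79, 2.91 and 2.63 in CKO, so its groups stayed apart. Lenep held 1.09, 1.30 and 1.16 in control and 0.395, 0.378 and 0.293 in CKO, and Zbtb7b 0.403, 0.561 and 0.545 in control and 0.238, 0.237 and 0.249 in CKO, with the same order of the groups. Gja3 was turned around, with 4.40, 4.64 and 4.83 in control and 5.24, 5.63 and 5.66 in CKO.

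**Figure D4:**
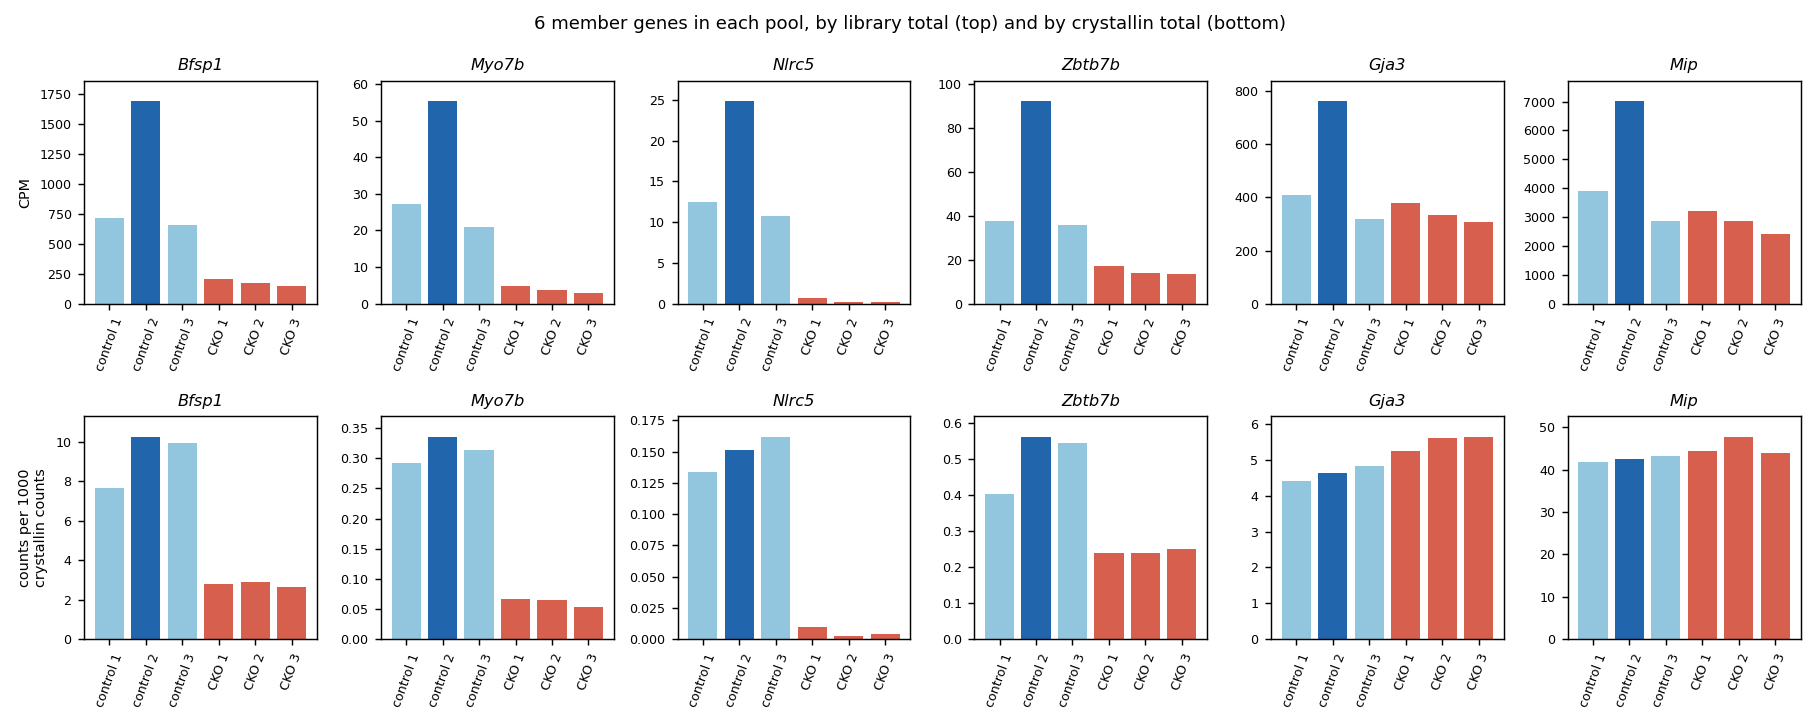
Levels of 6 genes in each pool as CPM (top) and as counts per 1000 crystallin counts (bottom), with 1 bar per pool, control replicates 1 and 3 in light blue, control replicate 2 in dark blue and CKO in red. Bfsp1, Myo7b, Nlrc5 and Zbtb7b were lower in all CKO pools on both scales, whereas Gja3 and Mip were higher in all CKO pools on the lower scale.

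With the crystallin total as library size, edgeR called 11 of the 84 genes lower, of 19 in the table (0.147% of all tested genes), and 0 of the 84 higher, of 39 in the table. The 11 were Alox12, Bfsp1, Birc7, Ceacam2, Gm20757, Lenep, Myo7b, Nlrc5, Pappa, Plekhs1 and Tmprss11e, and Zbtb7b was not among them. Ceacam2, Nlrc5, Plekhs1 and Tmprss11e passed the count filter through the control pools, so their calls lean on the difference tested. Both controls lay above all CKO pools for 34 of the 84 genes, against 0.690% of all tested genes, and below them for 16, against 18.9%. The median log2 fold change of the 84 genes was −0.07 on this scale and that of all tested genes 0.36, so the scale itself moved the centre of the table by 0.35. Relative to each centre, the median of the 84 genes was −0.44 by TMM and −0.43 by crystallins. A change of library sizes moves all genes by nearly the same amount, so these values had to lie close together. The crystallins are themselves fibre products. By TMM without control replicate 2, 14 of the 16 had a negative log2 fold change, with a median of −0.63, and none was called. Both controls lay above all CKO pools for 10 of them and below for 1, against 9.58% and 12.3% of all tested genes. A lower crystallin total raises every CKO value on this scale. Whether the crystallin level per fibre cell differed between the genotypes was not tested.

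Of 17 tested genes of oxidative and amino acid stress, 4 were members. Ggct, an enzyme of the glutathione cycle, had a log2 fold change of −1.22, with 22.5, 39.4 and 19.03 CPM in control and 11.1, 8.88 and 7.16 CPM in CKO. Its groups were apart, and the adjusted p from edgeR was 0.163. Haem oxygenase 1 (Hmox1), the cystine carrier Slc7a11 and the glutathione-degrading enzyme Chac1 had overlapping groups, with log2 fold changes of −0.39, −0.40 and −0.28. Gadd45b, a growth arrest gene and the single member among 11 genes of cell cycle exit, stood at 6.64, 12.6 and 5.07 CPM in control and at 2.77, 2.39 and 1.75 CPM in CKO (log2 fold change −1.37). The lysosomal carrier Slc46a3 had a log2 fold change of −1.13 and Sqrdl, a mitochondrial sulphide oxidoreductase, one of 0.09.

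The 4 blood genes were members without being lens genes. Hbb-y, an embryonic beta-like globin, stood at 468, 966 and 311 CPM in control and at 245, 373 and 367 CPM in CKO, and Alas2, the erythroid enzyme that opens haem synthesis, at 57.5, 126 and 43.6 CPM and at 33.0, 49.1 and 46.8 CPM. Hba-x, an embryonic alpha-like globin, had 46.5, 101 and 37.4 CPM and 27.2, 45.1 and 49.8 CPM. The groups overlapped in these 3 genes, with control replicate 3 below CKO replicates 2 and 3 in each, and the log2 fold changes were −0.28, −0.26 and −0.07. Hbb-bh1 stood at 2.85, 7.41 and 2.08 CPM and at 3.43, 3.46 and 3.28 CPM (log2 fold change 0.44, 95% interval from −0.24 to 1.11), the single gene with both controls below all CKO pools. The blood list summed to 575, 1200 and 394 CPM in control and to 309, 471 and 467 CPM in CKO. Of its 8 genes, 7 were in the table and 4 were tested. These 4 members made up the whole of each sum, so the other listed genes added nothing. Globin genes are close in sequence, and how their reads were assigned was not tested.

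The 45 genes without a name in the rule for the text spanned log2 fold changes of −2.13 to 0.19 (median −0.39), and both controls lay above all CKO pools for 18 of them, beside the 9.58% of all tested genes. Among them, 3 were called on the crystallin scale and not by TMM. Pappa, a protease of insulin-like growth factor binding proteins, stood at 12.1, 24.7 and 8.30 CPM in control and at 1.98, 3.72 and 1.37 CPM in CKO. Alox12, a lipoxygenase, stood at 15.4, 33.1 and 15.1 CPM and at 4.42, 4.73 and 2.24 CPM, and the noncoding Gm20757 at 35.8, 74.5 and 26.0 CPM and at 12.7, 9.04 and 5.25 CPM. In each of the 3 the CKO pools lay below both other control pools. Ibsp, a bone matrix sialoprotein, was shared by pools of both genotypes, with 4.17, 9.43 and 0.519 CPM in control and 0.660, 0.425 and 4.32 CPM in CKO. The noncoding Gm14005 had a log2 fold change of −0.24. Several pairs of the 84 genes lay within 100000 bases of each other: Col4a1 with Col4a2, Gss with Myh7b (18401 bases apart), Hbb-bh1 with Hbb-y (8584 bases), Krt1 with Krt4 (67740 bases) and Lenep with Zbtb7b (6211 bases). The libraries were strand-specific, but the strand option of the counting is not given in the sources used here, so values of Gm11961, an antisense gene, are uncertain. In the pair of Lenep and Zbtb7b both genes had separate groups, and Zbtb7b was called. Levels per exon length, averaged over the 6 pools, reached from 0.228 CPM per kb for Kcnj6 to 1730 CPM per kb for Mip among the named genes.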

How the data were processed

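From libraries that kept strand, the authors aligned read pairs to mm10 with TopHat 2.0.13, counted fragments per RefSeq gene with HTSeq 0.6.1 and deposited the raw counts of genes with a mean FPKM over a minimum in either group. Options for strand and overlap are not given in the sources used here. All 6 columns were mapped by name and 0 were left unassigned. The CKO pools carry the numbers of their titles. Nothing beyond the pools is known to separate the replicates, so p-values measure the spread between pools.

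The 84 genes, the gene lists and the comparison were chosen with earlier results of these data known. CPM in the text use column totals. The test was edgeR 4.0.16 in R 4.3.3 (TMM, robust quasi-likelihood fit, Benjamini-Hochberg adjustment over all tested genes at 0.05), on control replicates 1 and 3 and the 3 CKO replicates, where 2 or more libraries held a minimum of 10 counts. Whether groups overlapped was read from TMM-scaled CPM, except per crystallin count. The edgeR fit was also run on simulated counts, whose outcome is not given here. Genes named are members on a list, the 10 with the highest ratio of the rule, the called members or, up to 10, those of smallest p with separate groups, the 10 of highest mean CPM, and the 3 on each side of the limit. Alox12, Gm20757, Ibsp and Pappa were named after their values were seen, as were the other noncoding genes and the neighbours in the last paragraph. Alternatives used DESeq2 1.42.0, limma 3.58.1 and other library sizes, filters and libraries. Pairing by replicate number was checked on deviations from group means, with correlations of −0.48, 0.09 and 0.43 for numbers 1, 2 and 3, so the numbers were not taken to pair the pools. Tables used Python 3.11.15 with pandas 2.3.3, and figures matplotlib 3.10.9. Positions are of mm10 (GRCm38).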

Additional observations from a re-analysis of the deposited data

How the results depend on the processing

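The 5 calls among the 84 genes depended on the setting, and most directions did not. The count of genes called lower among the 84, with the count of all genes called in either direction in parentheses, was 25 (165) in DESeq2's Wald test, 11 (58) with the crystallin total as library size, 22 (127) with the replicate block, 0 (0) with at least 10 counts in every library, where 77 of the 84 genes were fitted and 795 genes of the table had an unadjusted p under 0.05, and 0 (0) with all 6 pools in edgeR, where 462 had. Leaving the crystallins out of the library sizes gave 13 called genes in all. Leaving out each library gave 0 to 2 (0 to 3), and where a control pool was left out, the lone one was assumed to vary like the rest and Tmprss11e and Ceacam2 fell below the filter, leaving 82 of the 84 genes. DESeq2 size factors, limma voom and no filter kept the count at 5. Block numbers were shared pool numbers only, and CKO replicate 2 was alone in its block. That pool added nothing to the genotype difference there, which rested on control and CKO replicates 1 and 3. The median log2 fold change of the 84 genes was −0.069 on the crystallin scale, −1.06 with all 6 pools, which include the one they were chosen on, and −0.64 to −0.20 with each library left out.

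The rule took 179 genes on TMM values, 131 with crystallins left out of the totals, 151 at a ratio of 1.5, 29 at a ratio of 2 and 140 against the other control pools alone, beside the 84 reported. On the crystallin scale the log2 fold change turned to 0.16 for Alas2, 0.032 for Chac1, 0.17 for Col4a1, 0.12 for Col4a2, 0.26 for Gja3, 0.14 for Gm14005, 0.36 for Hba-x, 0.17 for Hbb-y, 0.012 for Hmox1 and 0.10 for Mip. With all 6 pools it turned to −0.48 for Foxe3, −0.44 for Hbb-bh1, −0.50 for Maf and −0.53 for Sqrdl. With a library left out it lay between −0.32 and 0.10 for Gja3, −0.25 and 0.14 for Hba-x, −0.57 and 0.080 for Hbb-y, −0.092 and 0.14 for Maf and −0.33 and 0.66 for Sqrdl. The cause of these changes was not tested. At 1 to 11 counts per CKO library, depth limits the folds of Nlrc5 and Tmprss11e.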
